A study of Mus musculus with 4 samples.

Results

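The genes described here are the subunits of the hypoxia-inducible factors (HIF), the tumor suppressor *Vhl* and a set of HIF target genes that do not encode glycolytic enzymes. The rule that picks them is a list of names, with no measured value in it. Earlier results of these data were known when the names were chosen. They are *Hif1a*, *Epas1*, *Arnt*, *Vhl*, *Cited2*, *Bnip3*, *Bnip3l*, *Ddit4*, *Ankrd37* and *Mxi1*, which make up 10 of the 47729 gene rows in the count table. All 10 passed the filter on low counts and were among the 12536 genes tested.

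The table holds RNA-seq counts from regulatory T (Treg) cells, the CD4+ T cells that carry Foxp3 and restrain immune responses. Cells positive for YFP and CD25 were sorted from female C57BL/6 mice, 2 libraries from *Tfrc* +/+ *Foxp3* YFP-Cre/+ animals (WT) and 2 from *Tfrc* fl/fl *Foxp3* YFP-Cre/+ animals (TfR1-deficient). *Tfrc* encodes TfR1, the transferrin receptor through which cells take up iron, and the comparison asks how Treg cells differ when Cre removes it. Both groups carry the same YFP-Cre allele, so the controls express Cre as well. Cre and YFP are driven from the *Foxp3* locus on the X chromosome, so in heterozygous females the allele is active in only some of the Treg cells, and the YFP gate selects these. The labels give spleen as the tissue, the legend for this experiment adds lymph nodes, and neither says whether animals were pooled. The general notes on animals put mice of these genotypes at 6 to 8 weeks of age. The 4 libraries are called biological replicates, with nothing further on separate animals, so the p-values measure the spread between these libraries.

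HIF is a pair of proteins. An alpha subunit, HIF-1α from *Hif1a* or HIF-2α from *Epas1*, joins the stable beta subunit ARNT, and the pair binds DNA at short sites with the core ACGTG or GCGTG. When oxygen and iron are at hand, prolyl hydroxylases mark the alpha subunit, VHL recognizes the mark and the protein is destroyed. Because the hydroxylases need iron, low iron can stabilize HIF as low oxygen does. For HIF-2α the study describes another route, in which iron raises translation through iron-responsive elements in the untranslated leader of its mRNA. Most of this control acts on the protein and is not visible in the mRNA of the subunits. The mRNA of the target genes is a readout further downstream.

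Depth ranged from 10841939 to 17278448 counts per library, and between 17203 and 18797 genes had at least 1 count. Libraries of the same group differed by more than sampling noise, by a chi-square test of their counts (29.3 per degree of freedom within WT, 45.7 within the other group), so none looked like the same library deposited again. *Tfrc* itself stood at 50.8 and 54.1 CPM (counts scaled to a common library size, with TMM factors) in WT and at 56.1 and 48.3 CPM in those labelled TfR1-deficient, a log2 fold change of -0.01 ± 0.16 (SE). The deleted exons are not given in the sources used here, so this count, taken over the whole gene, does not show whether the deletion took place. The group is named below by its label. The study itself reports loss of TfR1 protein in Treg cells of male knockouts, by flow cytometry. It also reports less iron in CD25+YFP+ cells of the female genotype used here, by mass spectrometry. *Foxp3*, the defining Treg gene, read 194 and 130 CPM in WT against 122 and 114 CPM. The Treg markers were present in every library, and 6 of the 8 had both of their TfR1-deficient values under the WT pair, where 18.9% of all tested genes did, and the median log2 fold change was -0.43. *Ctla4* and *Ikzf4* were called lower, where 2.48% of all tested genes were. *Cd3e* had an unadjusted edgeR p of 0.0383 at a log2 fold change of -0.43, under the limit of 0.5 set out below. The other lists for cells that the sort could hold gave low levels for B cells, with summed levels between 25.6 and 42.5 CPM that came mostly from *Cd79b*, and for endothelial cells, where *Pecam1* made up nearly all of 298 to 312 CPM and *Kdr* was at 0.

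A pair of libraries, WT replicate 1 and TfR1-deficient replicate 2, carried RNA of macrophages. Their 18 macrophage markers summed to 1007 and 2984 CPM respectively, and the same sum was 119 CPM for WT replicate 2 and 77.6 CPM for TfR1-deficient replicate 1. All 18 were higher in each of the former pair than in each of the latter, and *Mertk* and *Fcgr1* were among those at 0 in WT replicate 2. The 12 proliferation genes followed the same split, with sums of 1808 and 1783 CPM in the macrophage-rich libraries against 852 and 921 CPM in the others. Erythroid genes summed to 20.0 and 115 CPM in WT and to 46.3 and 296 CPM in those labelled TfR1-deficient. The macrophage-rich pair holds 1 library of each genotype, so values are also given below for WT replicate 2 against TfR1-deficient replicate 1, where macrophage RNA was low. In bulk RNA, fewer cells of a type and less RNA per cell cannot be told apart.

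None of the 10 genes passed a test of the difference between the groups. A gene was called when its unadjusted p was under 0.05 and its absolute log2 fold change at least 0.5, the limits the study used. By this rule 0 of the 10 were called, where 4.08% of all tested genes were (1.6% higher and 2.48% lower in those labelled TfR1-deficient). After Benjamini-Hochberg adjustment of the edgeR quasi-likelihood p-values, 0% of all tested genes were called, 655 having an unadjusted p under 0.05, and the lowest adjusted p was 0.266 over all genes and 0.911 among the 10. DESeq2 called 39 genes at an adjusted p under 0.05, of which 6 were higher and 33 lower, and none of them was among the 10. Of the 10 fold changes 3 were positive and 7 negative, with a median log2 value of -0.11, where the median over all tested genes was 0.01 and the quartiles were -0.20 and 0.23. With 2 libraries against 2, an exact permutation test of any single gene cannot give a two-sided p below 0.333.

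Without regard to a test, both libraries labelled TfR1-deficient lay above both WT libraries for 1 of the 10 genes (*Mxi1*) and below both for 3 (*Hif1a*, *Epas1* and *Arnt*). Over all tested genes these shares were 16% and 18.9%. For the other 6 the groups overlapped. Within each group *Epas1*, *Cited2*, *Bnip3* and *Ankrd37* were higher in the macrophage-rich library, and the remaining 6 were not higher in both.

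**Figure D1:**
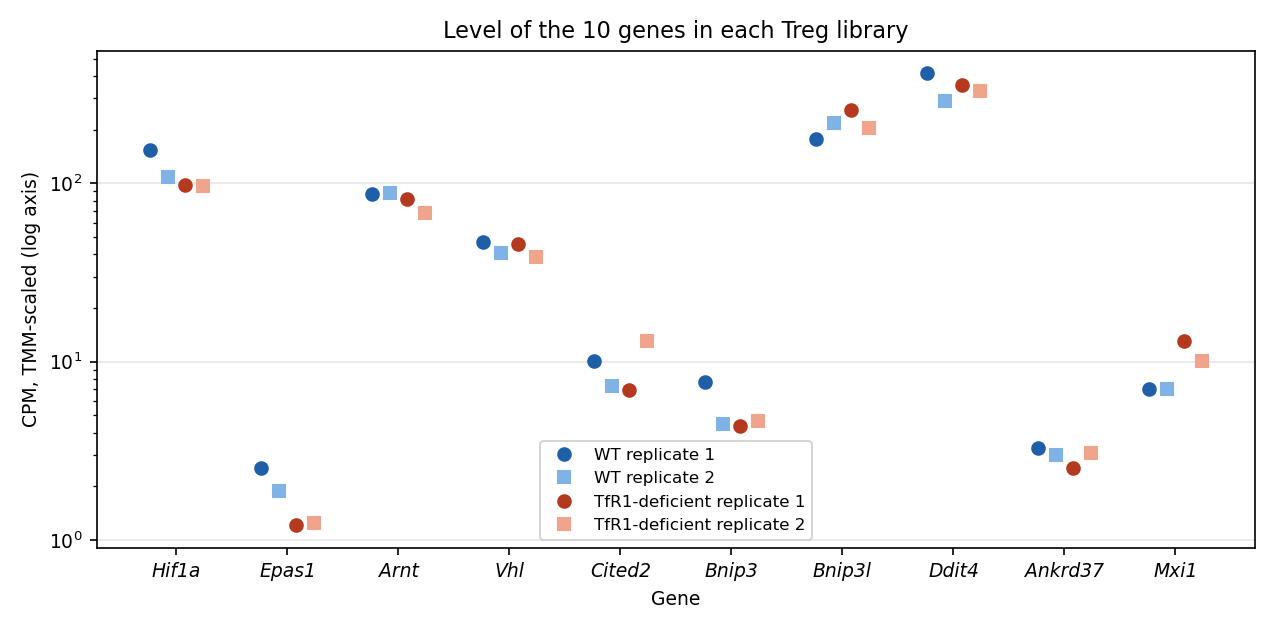
Level of each of the 10 genes in each of the 4 libraries, in TMM-scaled CPM on a log axis. Circles are replicate 1 and squares replicate 2, with WT in blue and the libraries labelled TfR1-deficient in red. Both red points lie below both blue points for Hif1a, Epas1 and Arnt, and above both for Mxi1.

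The levels of the 10 genes spanned a wide range. Compared per length, as RPKM (the CPM divided by the exon length in kilobases), *Ddit4* was highest at 206 ± 30.8 RPKM (SD over 4 libraries), above 97.7% of the tested genes. *Bnip3l* followed at 55.5 ± 8.69 RPKM, then *Hif1a* at 19.4 ± 4.58, *Vhl* at 14.3 ± 1.29 and *Arnt* at 10.1 ± 1.15 RPKM. *Cited2* stood at 4.75 ± 1.45 RPKM, *Bnip3* at 2.35 ± 0.70, *Ankrd37* at 2.12 ± 0.22 and *Mxi1* at 1.66 ± 0.52 RPKM. *Epas1* was lowest at 0.323 ± 0.118 RPKM, above only 4.28% of the tested genes. In this order the ranges over the 4 libraries overlapped between *Bnip3* and *Ankrd37* and between *Ankrd37* and *Mxi1*, and no other neighbors overlapped.

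The sequences around the HIF core motif are shown because they place the binding letters for the genes whose levels follow. RefSeq (GRCm38.p6) gave a window from 250 bases before to 50 bases after the start for 8 of the 10 genes, all but *Epas1* and *Bnip3l*. The letters ACGTG or GCGTG, on either strand, were found for 7 of these 8. For comparison, 46.7% of 27025 genes and 43.8% of 32851 windows held one of them, and ACGTG alone was in 19.6% of the windows. Each run below has 29 bases, 5′ to 3′ along the gene, with every match in capitals, and CACGTG is a match on both strands. *Vhl* held none.
*Hif1a*, chr12:73907720-73907748, plus strand: cacacagacaagCACGTGagcggggcagc
*Arnt*, chr3:95434349-95434377, plus strand: ccatagtttgggGCGTGtcttctgcccag
*Cited2*, chr10:17723063-17723091, plus strand: gcagccgctgcgCACGTGcagcgcggact
*Bnip3*, chr7:138909598-138909626, minus strand: gcgCACGCgccgCACGTGccaCACGCtcc
*Ddit4*, chr10:59951941-59951969, minus strand: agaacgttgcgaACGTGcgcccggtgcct
*Ankrd37*, chr8:45999840-45999868, minus strand: cagtgtttgggtACGTGaggccgcagcgg
*Mxi1*, chr19:53329335-53329363, plus strand: cctcggcacccgACGTGcactggcggggg

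*Bnip3* had 5 matches in its 300 bases, and 4 of them stand in the printed run. In *Bnip3*, *Hif1a* and *Cited2* a CACGTG is counted on each strand, so the counts do not rank the genes by distinct sites. *Ankrd37* had 4, *Hif1a* 3, *Cited2* and *Ddit4* 2 each and *Arnt* 1, the last being GCGTG only. Of the 3 annotated starts of *Mxi1*, 2 had a match. The runs of *Cited2*, *Bnip3* and *Ddit4* lie outside the annotated gene, that of *Arnt* spans its first base, and those of *Hif1a*, *Ankrd37* and *Mxi1* lie within the annotated span of the gene. A match describes the letters alone, as no binding was measured.

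*Hif1a* (chromosome 12, 73901324 to 73947554, GRCm38.p6) encodes the alpha subunit found in nearly all cells. It read 154 and 108 CPM in WT replicates 1 and 2 and 98.3 and 96.1 CPM in those labelled TfR1-deficient. The last 3 libraries lay close together and WT replicate 1 stood above them, and the groups did not overlap. The group means were 131 ± 32.2 and 97.2 ± 1.53 CPM (SD, n = 2 each). The log2 fold change was -0.43 ± 0.20 (SE), with a 95% interval from -0.95 to 0.09. The edgeR adjusted p was 0.911, and 9.25% of all tested genes had a lower p. The size rested on WT replicate 1. Without it the log2 fold change was -0.15, without WT replicate 2 it was -0.66 at an unadjusted edgeR p of 0.0172, and between the libraries low in macrophage RNA it was -0.14.

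*Epas1* (chromosome 17, 86753864 to 86833410) encodes HIF-2α, known best from endothelium, kidney and the gut epithelium that absorbs iron. It had 31 and 20 counts in WT and 21 and 17 in those labelled TfR1-deficient, or 2.54, 1.87, 1.21 and 1.24 CPM. Both latter libraries lay below both WT libraries. The counting errors overlapped, with 95% Poisson intervals from 1.72 to 3.602 and from 1.15 to 2.90 CPM in WT, and from 0.749 to 1.85 and from 0.723 to 1.99 CPM in those labelled TfR1-deficient. These intervals cover counting error only. The means of 2.21 ± 0.469 and 1.23 ± 0.0218 CPM gave a log2 fold change of -0.85 ± 0.50 (SE), with an interval from -2.12 to 0.43 and an edgeR adjusted p of 0.934. The interval holds both a loss of over 2 on the log2 scale and a gain, so these libraries do not settle its size or sign. In the study, flow cytometry showed less HIF-2α protein in TfR1-deficient Treg cells, whereas the protein of *Hif1a* was not decreased. Its real-time PCR gave no significant decrease of HIF-2α mRNA. Between the libraries low in macrophage RNA the log2 difference was -0.57, and between the macrophage-rich pair -0.95. Of the endothelial genes, *Cdh5* and *Kdr* had at most 3 counts in any library, *Tek* at most 1, *Emcn* 6 and *Egfl7* 7. *Pecam1* had 3242 to 5156 counts. The part of endothelial RNA in the level of *Epas1* was not tested.

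*Hif1a* outweighed *Epas1* in every library. The ratio of their RPKM was 54.6 and 52.0 in WT and 73.2 and 69.8 in those labelled TfR1-deficient, so both ratios of the latter were higher, on an *Epas1* count of at most 31. Genes with a pattern most like that of *Epas1* were sought by Pearson correlation of log2 CPM over the 4 libraries among the 3398 genes whose highest and lowest library differed by at least 1 on the log2 scale. Among the 5 with the highest r were *Ticam1* (r = 0.998), *Il10* (0.996) and the unnamed gene ENSMUSG00000108180 (0.996). The 4 points of each gene share the same libraries, and 12 genes reached an r of 0.99. *Epas1* itself had a log2 range of 0.983, under the limit of 1 set for the others. These genes were picked for following *Epas1*, so the order of their libraries was set by the choice and adds no support. *Il10*, for the suppressive cytokine interleukin-10, read 12.03 and 5.53 CPM in WT against 1.21 and 1.17 CPM, and *Ticam1*, an adaptor of innate immune signaling, 7.78 and 5.81 against 3.40 and 3.58 CPM.

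*Arnt* (chromosome 3, 95434367 to 95497240), the beta subunit that both alpha subunits need, read 87.3 and 87.8 CPM in WT and 81.2 and 68.0 CPM in those labelled TfR1-deficient. The WT values were nearly equal and both others lay below them, TfR1-deficient replicate 2 by the larger margin. On the log2 scale the difference was -0.11 between the libraries low in macrophage RNA and -0.36 between the macrophage-rich pair. With means of 87.5 ± 0.404 and 74.6 ± 9.36 CPM the log2 fold change was -0.23 ± 0.15 (SE), the interval ran from -0.62 to 0.16 and the edgeR adjusted p was 0.934. The related subunit gene *Arnt2* was near the limit of detection at 0.403 to 1.23 CPM. *Hif3a*, the remaining alpha subunit gene, had 7 to 10 counts and was not tested. The coactivators of HIF, *Ep300* and *Crebbp*, had log2 fold changes of -0.06 ± 0.15 and 0.16 ± 0.34, and their groups overlapped. Of the 6 genes in this list of partners 3 were tested, 1 with a positive and 2 with a negative fold change. Of these 0 were called, where 4.08% of all tested genes were.

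*Vhl* (chromosome 6, 113623994 to 113631634), the part of the ubiquitin ligase that recognizes hydroxylated HIF-α, showed 46.9 and 40.6 CPM in WT and 45.6 and 38.8 CPM in those labelled TfR1-deficient. Replicate 1 was the higher library in each group, and the groups overlapped. *Vhl* differed by 0.17 on the log2 scale between the libraries low in macrophage RNA and by -0.27 between the macrophage-rich pair. Its log2 fold change of -0.05 ± 0.18 (SE) had an interval from -0.51 to 0.40 and an edgeR adjusted p of 0.99.

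None of the enzymes upstream of *Vhl* or of its ligase partners was called, where 4.08% of all tested genes were. All 8 were tested, 5 had a positive and 3 a negative fold change, and the median log2 value was 0.10. *Egln1*, the main HIF prolyl hydroxylase and a target of HIF in turn, read 14.2 and 15.5 CPM in WT against 20.2 and 16.3 CPM. Both latter libraries lay above both WT, at a log2 fold change of 0.30 ± 0.25. *Hif1an*, the asparagine hydroxylase that blocks coactivator binding, read 101 and 94.3 CPM in WT against 87.9 and 66.0 CPM, both lower, at -0.34 ± 0.19 and an edgeR adjusted p of 0.921. *Egln3*, a hydroxylase gene that hypoxia induces in many cells, read 6.38, 7.50, 6.86 and 7.01 CPM in the same library order, and its log2 fold change of -0.0014 changed sign with the scaling. The log2 fold changes of the others were -0.06 for *Egln2*, 0.28 for *Elob*, 0.14 for *Eloc*, 0.05 for *Cul2* and 0.14 for *Rbx1*, and the groups of each overlapped.

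*Cited2* (chromosome 10, 17723228 to 17725674) is a HIF target whose product competes with HIF-α for the coactivators. It read 10.1 and 7.31 CPM in WT and 6.92 and 13.1 CPM in those labelled TfR1-deficient. Its high libraries were the macrophage-rich ones in both groups, and the part of macrophage RNA in its level was not tested. The groups overlapped, with means of 8.69 ± 1.95 and 9.99 ± 4.35 CPM, a log2 fold change of 0.20 ± 0.42 (SE) and an edgeR adjusted p of 0.98. The sign turned to -0.33 without TfR1-deficient replicate 2, and between the libraries low in macrophage RNA the log2 difference was -0.08.

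**Figure D2:**
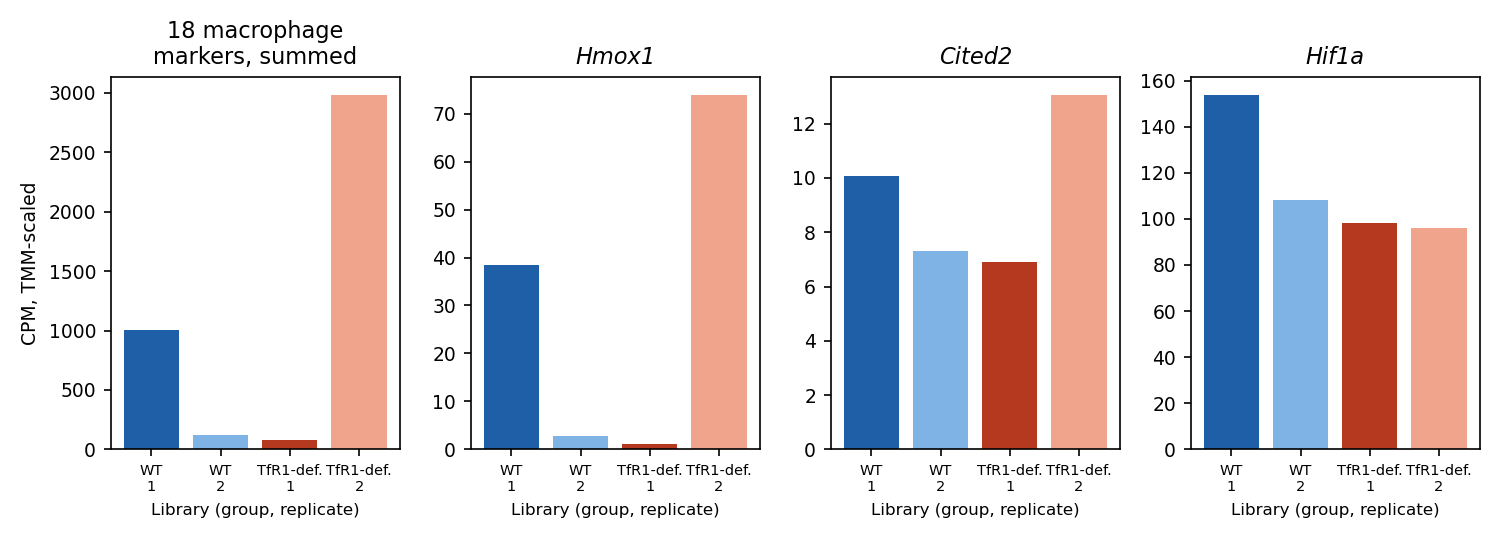
TMM-scaled CPM per library, as bars from 0, of the 18 macrophage markers summed, Hmox1, Cited2 and Hif1a. The first 3 panels are highest in WT replicate 1 and TfR1-deficient replicate 2, whereas for Hif1a only WT replicate 1 stands above the rest.

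*Bnip3* and *Bnip3l* encode related receptors of the outer mitochondrial membrane that recruit the autophagy machinery to mitochondria. *Bnip3* (chromosome 7, 138890836 to 138909506), the one with the clustered motifs shown above, was low at 7.69 and 4.50 CPM in WT and 4.38 and 4.67 CPM in those labelled TfR1-deficient. WT replicate 1 stood apart and the other 3 libraries were alike, so the groups overlapped. The log2 fold change of -0.43 ± 0.40 (SE), with an interval from -1.45 to 0.59 and an edgeR adjusted p of 0.954, became 0.02 without WT replicate 1. It was -0.04 between the libraries low in macrophage RNA and -0.70 between the macrophage-rich pair.

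*Bnip3l* (chromosome 14, 66985238 to 67008877) was far more abundant, at 177 and 217 CPM in WT and 258 and 204 CPM in those labelled TfR1-deficient. The highest library was labelled TfR1-deficient and the lowest WT, but the groups overlapped. In each group the macrophage-rich library was the lower one. The log2 difference was 0.25 between the libraries low in macrophage RNA and 0.21 between the macrophage-rich pair. The part of macrophage RNA in the level of *Bnip3l* was not tested. Means of 197 ± 28.1 and 231 ± 37.8 CPM gave a log2 fold change of 0.23 ± 0.19 (SE), an interval from -0.25 to 0.71 and an edgeR adjusted p of 0.95. Per length, *Bnip3l* exceeded *Bnip3* by 13.5 and 28.3 times in WT and by 34.5 and 25.7 times in those labelled TfR1-deficient, ratios that overlapped.

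Other receptors and adaptors of mitophagy gave no call either, where 4.08% of all tested genes were called. Of 8 genes 6 were tested, 2 with a positive and 4 with a negative fold change, and the median log2 value was -0.01. *Sqstm1*, for the adaptor p62, had the highest mean level of these, at 347 and 284 CPM in WT against 245 and 276 CPM, both lower, with a log2 fold change of -0.28 ± 0.17. *Bcl2l13* was lower in both as well, at -0.27 ± 0.15, whereas the groups overlapped for *Pink1* (0.36 ± 0.33), *Phb2* (0.03 ± 0.37) and *Fkbp8* (-0.01 ± 0.16).

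*Ddit4* (chromosome 10, 59949675 to 59951770), also known as REDD1, restrains the growth kinase complex TORC1. It read 414 and 289 CPM in WT and 355 and 331 CPM in those labelled TfR1-deficient. Both latter values lay between the WT values. *Ddit4* differed by 0.29 on the log2 scale between the libraries low in macrophage RNA and by -0.32 between the macrophage-rich pair. The fold change was near 0, at -0.04 ± 0.21 (SE) on the log2 scale, with an interval from -0.56 to 0.49 and an edgeR adjusted p of 0.994, and its sign depended on the scaling. The high count of this gene, 3085 or more in each library, leaves counting error small beside the spread between the WT libraries.

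Among 8 other brakes on TORC1 7 were tested, 1 with a positive and 6 with a negative fold change, at a median log2 value of -0.14. Of these 0 were called, where 4.08% of all tested genes were. *Deptor*, with 4 to 12 counts per library, was lower in both libraries labelled TfR1-deficient, at -1.37 ± 0.78 and an edgeR adjusted p of 0.931. It passed the count filter only through WT, the group in which it is high, so its fold change carries no weight for the list. The filter of 10 counts in every library drops it, and the list then had 2 positive and 4 negative fold changes, at a median of -0.07. The sestrin genes *Sesn2* and *Sesn3* had log2 fold changes of -0.30 ± 0.33 and -0.21 ± 0.18, and *Akt1s1* one of 0.03 ± 0.27. All 3 overlapped between the groups.

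*Ankrd37* (chromosome 8, 45996908 to 46000414), a small ankyrin-repeat gene that is a well-known HIF-1 target, had 40 and 32 counts in WT and 44 and 42 in those labelled TfR1-deficient. This came to 3.27, 2.9995, 2.54 and 3.07 CPM, and the groups overlapped. The log2 fold change was -0.16 ± 0.40 (SE), with an interval from -1.17 to 0.84 and an edgeR adjusted p of 0.984. *Ankrd37* differed by -0.23 between the libraries low in macrophage RNA and by -0.09 between the macrophage-rich pair. Its span overlaps *Ufsp2*, as those of *Hif1a*, *Bnip3* and *Mxi1* overlap *Gm15283*, *Gm18258* and *Gm30541*. The strand setting of the counting is not given in the sources used here, so reads of the overlapping genes may not have been told apart.

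*Mxi1* (chromosome 19, 53310128 to 53373293) encodes a MAX-binding protein that opposes Myc and is induced by HIF. It had 86 and 75 counts in WT and 228 and 139 in those labelled TfR1-deficient, or 7.04, 7.03, 13.1 and 10.1 CPM. The WT libraries were nearly equal and both others lay above them, TfR1-deficient replicate 1 highest. Their 95% Poisson intervals, 5.63 to 8.69 and 5.53 to 8.81 CPM in WT against 11.5 to 15.0 and 8.53 to 11.98 CPM, were separate for TfR1-deficient replicate 1 and overlapped those of WT for replicate 2. The means of 7.03 ± 0.00669 and 11.6 ± 2.12 CPM gave a log2 fold change of 0.73 ± 0.30 (SE), a ratio of 1.66, with an interval from -0.02 to 1.48. It missed the test, with an unadjusted p of 0.0555 and an adjusted p of 0.911 by the edgeR quasi-likelihood test, and 5.76% of all tested genes had a lower p. Scaling by total library size gave an unadjusted edgeR p of 0.0461, and the stricter count filter one of 0.0423. The difference was 0.89 between the libraries low in macrophage RNA and 0.52 between the macrophage-rich pair.

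**Figure D3:**
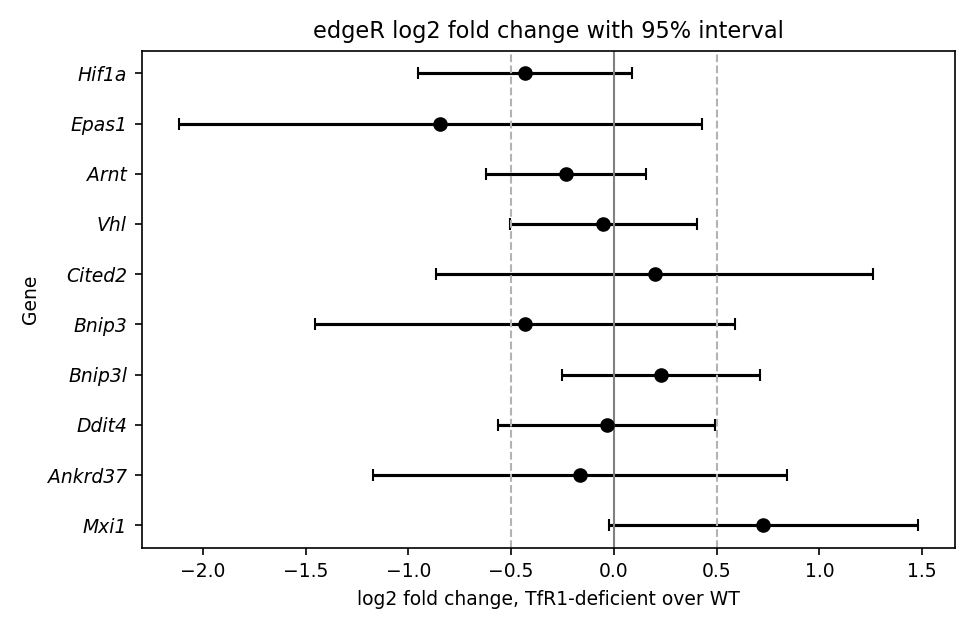
The edgeR log2 fold change of each of the 10 genes, libraries labelled TfR1-deficient over WT, with its 95% interval. Dashed lines mark a log2 fold change of 0.5 in each direction. All 10 intervals include 0, that of Mxi1 narrowly, and that of Epas1 is the widest.

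The relatives of *Mxi1* in the MAX network numbered 9, of which 8 were tested, 2 with a positive and 6 with a negative fold change, at a median log2 value of -0.17. *Mxd1*, another partner of MAX that opposes Myc, was the 1 called gene, where 4.08% of all tested genes were called. It read 95.9 and 76.0 CPM in WT against 135 and 118 CPM, higher in both, with a log2 fold change of 0.56 ± 0.18, an unadjusted p of 0.0239 and an adjusted p of 0.911 by edgeR (0.043 to 1 over the alternatives). Its unadjusted p rose to 0.113 when WT replicate 2 was left out, and to 0.107 when TfR1-deficient replicate 1 was. *Myc* read 481 and 436 CPM in WT and 386 and 367 CPM in those labelled TfR1-deficient. Both latter lay below both WT, at -0.28 ± 0.14 and an edgeR adjusted p of 0.911. *Mlx* (-0.23 ± 0.17) and *Max* (-0.22 ± 0.15) were not called, and neither was *Mnt* (0.04 ± 0.23).

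Of 45 further HIF targets outside glycolysis, 32 were tested. The fold change was positive for 18 and negative for 14, the median log2 value was 0.08, 7 lay above WT in both libraries and 10 below, and 1 was called higher and 2 lower. Over all tested genes 16% lay above and 18.9% below, 1.6% were called higher and 2.48% lower. By gene set enrichment of RNA-seq from Treg cells of these genotypes, the study reports lower levels of hypoxia-response genes in the TfR1-deficient cells. No set test was run here, and the genes of that set are not given in the sources used here. *Bhlhe40*, a basic helix-loop-helix repressor of activated T cells, read 157 and 188 CPM in WT against 78.0 and 45.2 CPM, a log2 fold change of -1.49 ± 0.29 with an unadjusted p of 0.0035 and an adjusted p of 0.911 by edgeR. Its adjusted p was 0.00155 under DESeq2, and from 8.21e-11 with no count filter to 1 with a replicate block under edgeR. *Nt5e*, the gene of the ectoenzyme CD73 that makes adenosine, read 605 and 457 CPM in WT against 192 and 315 CPM, a log2 fold change of -1.07 ± 0.29 and an unadjusted edgeR p of 0.0132. Its adjusted p was 0.911 and ran from 2.4e-05 with no count filter to 1 with a replicate block, and without WT replicate 1 the unadjusted p was 0.0718. For each of these genes both values of the group labelled TfR1-deficient lay under the WT pair.

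*Lox*, for the collagen cross-linking enzyme lysyl oxidase, was the gene called higher, at an unadjusted edgeR p of 0.00778 and adjusted values from 0.0263 to 1 over the alternatives run. It passed the count filter only through the group in which it is high, so this call carries no weight for the list, and the filter of 10 counts in every library drops it. It had 0 counts in both WT libraries and 21 and 14 counts in those labelled TfR1-deficient, which makes it at least 8.6-fold higher when WT is set to 3 counts over the group. *Adm*, for adrenomedullin, was named after its values were seen. It ran the other way, with 8 and 5 counts in WT and 0 in both libraries labelled TfR1-deficient, at least 5.88-fold lower by the same bound, and was too low to be tested. *Ndrg1*, a stress gene strongly induced by hypoxia, read 9.74 and 8.06 CPM in WT against 5.71 and 5.69 CPM, lower in both, at -0.64 ± 0.30 and an edgeR adjusted p of 0.911. *Stc2* had 6 to 22 counts and overlapping groups.

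*Hmox1*, the heme oxygenase that frees iron from heme, read 38.4 and 2.81 CPM in WT and 1.09 and 74.0 CPM in those labelled TfR1-deficient. It was high in the macrophage-rich libraries and low in the others, and its log2 fold change of 0.86 ± 1.81 had an edgeR adjusted p of 0.98. The part of macrophage RNA in its level was not tested. Several textbook targets gave almost no reads. *Epo*, *Vldlr* and *Ppp1r3c* had 0 counts in every library, and *Vegfa* had 1 count in WT replicate 1 and none elsewhere. A count of 0 allows up to 3 counts, which is 0.173 to 0.281 CPM in these libraries.

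**Figure D4:**
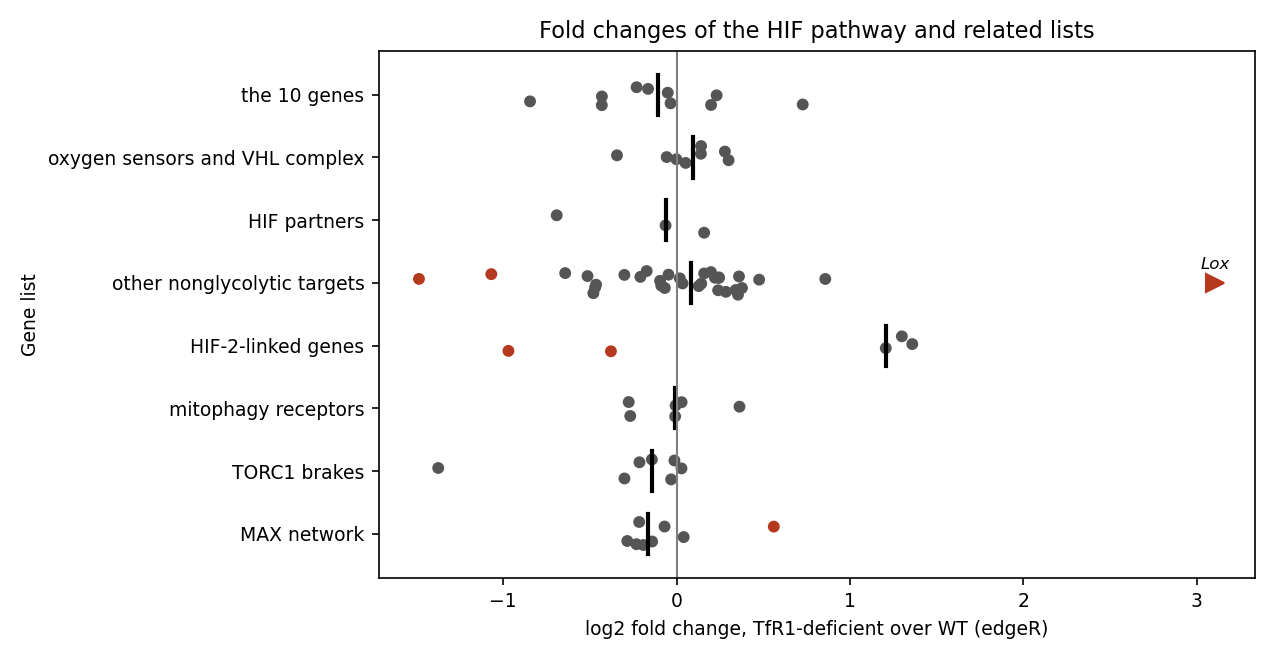
Log2 fold change of each tested gene in the 10 genes and 7 related lists, libraries labelled TfR1-deficient over WT, with the list median as a bar. Red points have an unadjusted edgeR p under 0.05, and the triangle shows Lox at its lower bound of 3.10. Most points lie near 0, and the high median of the HIF-2-linked genes comes from genes with widely spread libraries.

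The genes linked to HIF-2 in particular numbered 9, of which 5 were tested and 1 called, where 4.08% of all tested genes were. *Maf*, the gene of the transcription factor c-Maf that marks a subset of effector Treg cells, was the only one called. It read 62.0 and 68.4 CPM in WT and 28.4 and 38.2 CPM in those labelled TfR1-deficient, lower in both, with a log2 fold change of -0.97 ± 0.20, an unadjusted p of 0.00441 and an adjusted p of 0.911 by edgeR. Over the alternatives its adjusted p ran from 0.00299 with no count filter to 1 with a replicate block, and was 0.0744 under DESeq2. Between the libraries low in macrophage RNA the log2 difference of *Maf* was -1.26, and between the macrophage-rich pair -0.70. *Slc11a2*, for the endosomal iron transporter DMT1, read 73.7 and 69.2 CPM in WT against 54.2 and 55.6 CPM. Both were lower, and the log2 fold change of -0.38 ± 0.14, at an unadjusted edgeR p of 0.0389, was under the limit of 0.5.

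The groups overlapped for the other tested genes of this list. *Slc40a1*, for the iron exporter ferroportin, read 208 and 10.3 CPM in WT against 11.7 and 548 CPM, high in the macrophage-rich libraries of both groups. *Ccnd1* was likewise highest in that pair, at 1.64, 0.750, 0.576 and 5.40 CPM, and *Cybrd1* was highest in TfR1-deficient replicate 1 at 2.71 CPM. The median log2 fold change of 1.21 over the list was set by these 3. Without TfR1-deficient replicate 2 it was -1.05, and with at least 10 counts required in every library it was -0.36.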

How the data were processed

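RNA was extracted from sorted YFP+CD25+ Treg cells with an RNeasy plus kit, and libraries were made with a low-input NEBNext kit. The authors deposited whole-number counts per Ensembl gene for 4 libraries. The submitters' processing notes name Trim Galore 0.6.7, STAR 2.7.9a, featureCounts and mm10, whereas the methods name mm9. The annotation release, the strand setting and the treatment of multimapped reads are not given in the sources used here.

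Groups came from the genotype labels. Of 47729 rows, 32799 were matched to a symbol through GENCODE vM1 and 14930 were not, with older symbols matched through the reference tables. The erythroid genes *Hbb-bs*, *Hbb-bt* and *Ahsp* were not matched. Genes were filtered with filterByExpr, scaled by TMM and tested with the edgeR 4.0.16 quasi-likelihood test (R 4.3.3) over all 12536 genes that passed, on genotype alone, with Benjamini-Hochberg adjustment. CPM used TMM-scaled library sizes, and RPKM used summed exon lengths from GENCODE vM1. Log2 CPM for correlations used a prior count of 2. Poisson intervals (95%) are exact and cover counting error only. Coordinates and promoter windows came from RefSeq GRCm38.p6. DESeq2 1.42.0 was an alternative, as were other scalings, other count filters, a replicate block and leaving out libraries. The code was tested on simulated data.

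The 10 genes, the lists of pathway genes and the marker lists were chosen with earlier results of these data known, so no list is independent evidence. Named beside the 10 were all tested oxygen sensors and HIF partners, the 3 largest fold changes in each direction in every other pathway list, *Maf*, *Tfrc*, *Foxp3* and the 5 genes most like *Epas1*, of which some are not reported here. Other genes, such as single markers, are named for context.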

Additional observations from a re-analysis of the deposited data

How the results depend on the processing

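Libraries that share a replicate number deviated from the group means in opposite ways (r = -0.61 across 12536 genes). The macrophage-rich libraries carry different replicate numbers, so this r cannot show whether same-numbered libraries were prepared together. The labels do not say. With the replicate number as a block, 211 genes were called at the unadjusted p (70 higher and 141 lower) in place of 511, and the log2 fold changes were -0.41 for *Hif1a* and -0.83 for *Epas1*. Pairing crosswise, an alternative that was chosen after seeing the data, called 1115 genes at the unadjusted and 360 at the adjusted p, with 1 of the 10 genes at the unadjusted p. With no filter beyond 1 count, 1095 genes were called at the unadjusted and 262 at the adjusted p, against 39 adjusted by DESeq2 and 0 by edgeR. Total library size and the filter of 10 counts in every library each called 1 of the 10, *Mxi1*. Scaling by total library size split the unadjusted calls into 239 higher and 264 lower, against 200 and 311 with TMM. Leaving out single libraries called 0 to 1 of the 10, the 1 being *Hif1a* without WT replicate 2. The log2 fold change of *Hif1a* was -0.14 between WT replicate 2 and TfR1-deficient replicate 1 and -0.68 between WT replicate 1 and TfR1-deficient replicate 2, and the median of the 10 was -0.30 in the latter pair. That median was 0.04 without WT replicate 1. The cause of these shifts was not tested. Signs turned as follows. Under DESeq2, its size factors, total library size, the filter of 10 and no filter, *Egln3* was 0.0127, 0.0124, 0.0357, 0.0203 and 0.0097, *Fkbp8* 0.0039, 0.0037, 0.0276, 0.0108 and 0.0021, and *Tfrc* 0.0063, 0.0059, 0.0296, 0.0129 and 0.0045. *Egln3* was 0.0029 under the block and 0.0015 under the crossed pairing. *Ddit4* was 0.0009 under total library size, and *Hmox1* -0.13 under the block. With single libraries left out, signs turned over these ranges of log2 fold change: *Vhl* -0.17 to 0.066, *Bnip3* -0.76 to 0.019, *Ddit4* -0.27 to 0.26, *Cited2* -0.33 to 0.59, *Egln2* -0.15 to 0.028, *Egln3* -0.10 to 0.12, *Elob* -0.0026 to 0.64, *Eloc* -0.049 to 0.31, *Cul2* -0.061 to 0.15, *Ep300* -0.16 to 0.037, *Crebbp* -0.22 to 0.58, *Hmox1* -4.23 to 3.76, *Stc2* -0.092 to 1.09, *Fkbp8* -0.13 to 0.10, *Phb2* -0.38 to 0.61, *Akt1s1* -0.13 to 0.22, *Sesn2* -0.80 to 0.070, *Mnt* -0.094 to 0.16, *Tfrc* -0.12 to 0.094, *Ccnd1* -1.05 to 2.16, *Cybrd1* -0.15 to 1.87 and *Slc40a1* -3.22 to 4.79. *Hif1a*, *Epas1*, *Arnt* and *Mxi1* kept their direction under every alternative run. Their groups did not overlap, so leaving out libraries or comparing single pairs could not have turned it. *Bnip3l* and *Ankrd37* are not among the turned signs above either. A library left alone in its group was assumed to vary like the other group. *Epas1* rests on 17 to 31 counts per library, and the parts of depth and of spread between libraries in its error were not told apart.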

Other observations

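Some genes of the related lists stood outside the rule for naming and were picked after their values were seen. *P4ha2*, a collagen prolyl hydroxylase gene that belongs to the HIF targets, had 0 and 4 counts in WT and 11 and 10 counts in the libraries labelled TfR1-deficient. *Car9*, for the hypoxia-induced carbonic anhydrase IX, had 2 and 1 counts in WT and 11 and 2 counts. *Ddit4l*, the homolog of *Ddit4*, had 0 in both WT libraries and 6 and 1 counts in the others. None of these passed the count filter. *Gbe1*, for the glycogen branching enzyme, was steadier, at 31.3 and 32.9 CPM in WT against 41.1 and 41.2 CPM, with a log2 fold change of 0.36 and an unadjusted edgeR p of 0.076. *Kdm4c* and *Kdm4b*, histone demethylase genes of the same family, lay on opposite sides. The former read 80.2 and 79.0 CPM in WT against 68.8 and 46.1 CPM, and the latter 22.4 and 25.5 CPM in WT against 36.2 and 26.0 CPM.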
